A study of Mus musculus with 6 samples.

Results

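The genes described here carry the insulin signal from the cell surface to the nucleus: the insulin receptor (Insr), its docking proteins (Irs1, Irs2), the lipid kinase PI3K (Pik3ca, Pik3r1), the kinases Akt1 and Akt2, and the transcription factors Foxo1 and Foxo3. They were chosen by name, with earlier results of these data known. Each probe set that the array's platform table assigns to exactly 1 of these 9 symbols was taken. This gave 29 of the 45101 probe sets on the array. A further probe set is listed for both Foxo3 and a predicted gene and was left out. Liver RNA came from male mice at 18 weeks of age, fed ordinary chow, with 1 array per sample. The NZO group holds 3 arrays of the New Zealand Obese strain, an inbred strain that becomes obese and diabetic without dietary challenge. The BKS group holds 3 arrays of the BKS (C57BLKS) strain, marked as wild type in their titles. The strains differ across the whole genome, so the comparison is between 2 inbred strains and not of 1 allele. Nothing in the labels says outright that each array is a separate animal. If some are not, p-values measure only the spread between these samples.

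In hepatocytes, insulin binding makes its receptor phosphorylate the IRS docking proteins, which recruit PI3K. PI3K makes the membrane lipid that brings AKT to its activating kinases, and AKT phosphorylates FOXO1, which then leaves the nucleus. While nuclear, FOXO1 raises transcription of genes for glucose output such as G6pc and Pck1, and also of Igfbp1 and of Irs2 itself. Most of this control acts on the proteins through phosphorylation, and an expression array measures only the RNA.

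All values are log2 RMA values, and differences are NZO minus BKS on that scale. Array medians lay between 5.08 and 5.22. The arrays titled number 1 in each strain (replicate 1 of each) had weaker spiked-in hybridization controls, 8.51 in NZO and 9.64 in BKS, against 11.7 and 11.4 on the other NZO arrays and 10.9 and 10.4 on the other BKS arrays. They are called the number 1 arrays below. The labels name no batch. Beside the plain fit stands a fit with these 2 arrays as 1 block and the other 4 as the second (the number 1 block). This split follows the array titles and was chosen with earlier results of these data known. The 3' probe set of beta-actin exceeded its 5' probe set by 1.29 to 1.39 in NZO and 1.72 to 2.33 in BKS. This measure grows when RNA or cDNA is shortened. For Gapdh it was -0.04 to 0.14 in NZO and 0.45 to 0.98 in BKS. Hepatocyte markers averaged 12.1 to 13.0 in NZO and 12.7 in each BKS array. Of the 8 sinusoidal endothelial markers, all lay above 0 in NZO minus BKS, and their mean level was 6.95 to 7.73 in NZO and 6.61 to 6.92 in BKS, and none of them passed the test (1 was higher in NZO with the block described above). Kupffer cell, stellate cell and 6 further marker lists also had no gene past the test, and their mean levels overlapped between strains. Over 6 arrays the endothelial, Kupffer and stellate lists had median differences of 0.42, 3.3e-06 and 0.02. Without the number 1 arrays these were 0.75, 0.51 and 0.20. In that fit 2, 1 and 1 of their genes and 1 hepatocyte marker passed, all higher in NZO, against 3.36% of all genes in either direction. Fewer cells of a type and less RNA per cell cannot be told apart in whole liver. The part of these array and cell measures in the differences given here was not tested.

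None of the 29 probe sets passed limma's test over all 6 arrays (adjusted p below 0.05 over 45037 probe sets), where 0.424% of all probe sets passed in either direction. Unadjusted p was below 0.05 for 9 of the 29, against 10.1% of all probe sets. The lowest adjusted p was that of a Foxo1 probe set. With the number 1 block, which leaves the differences as they are and changes their error, 3 of the 29 were lower in NZO, against 2.04% of all probe sets called lower, and none was higher, against 0.926%. The 3 were 2 Foxo1 probe sets and the bright Insr probe set. Between the other 2 NZO and 2 BKS arrays 2 of the 29 were lower, against 1.26% of all probe sets, with array weights 3, against 1.13%, and without NZO replicate 2 there was 1, against 0.14%. In 6 of the 29, all NZO values lay below all BKS values, as in 8.49% of all probe sets, and in 2 all NZO values lay above, as in 6.83%.

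Signal on the array was uneven among these probe sets, and 11 of the 29 averaged below 6, where little signal stands over the array median. In the probe set names, the suffix _s_at marks probes that can match more than one transcript sequence. Over the 18 with a mean of at least 6, the median difference was -0.32, with 13 below 0. The median over all 16482 probe sets as bright was -0.14, with 62.8% below 0. Over the 6 arrays, bright probe sets were thus shifted toward lower values in NZO across the whole array. Without the number 1 arrays the median was -0.05 over all bright probe sets and -0.26 over the 18. NZO replicate 1 was the lowest of the 6 arrays in 8 of these 18 and in 54.8% of all bright probe sets. Renormalizing the 6 arrays brought the median of all bright probe sets to -0.015 (repeated quantile normalization) and 0.016 (cyclic loess), and that of the 18 to -0.19 and -0.17.

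**Figure D1:**
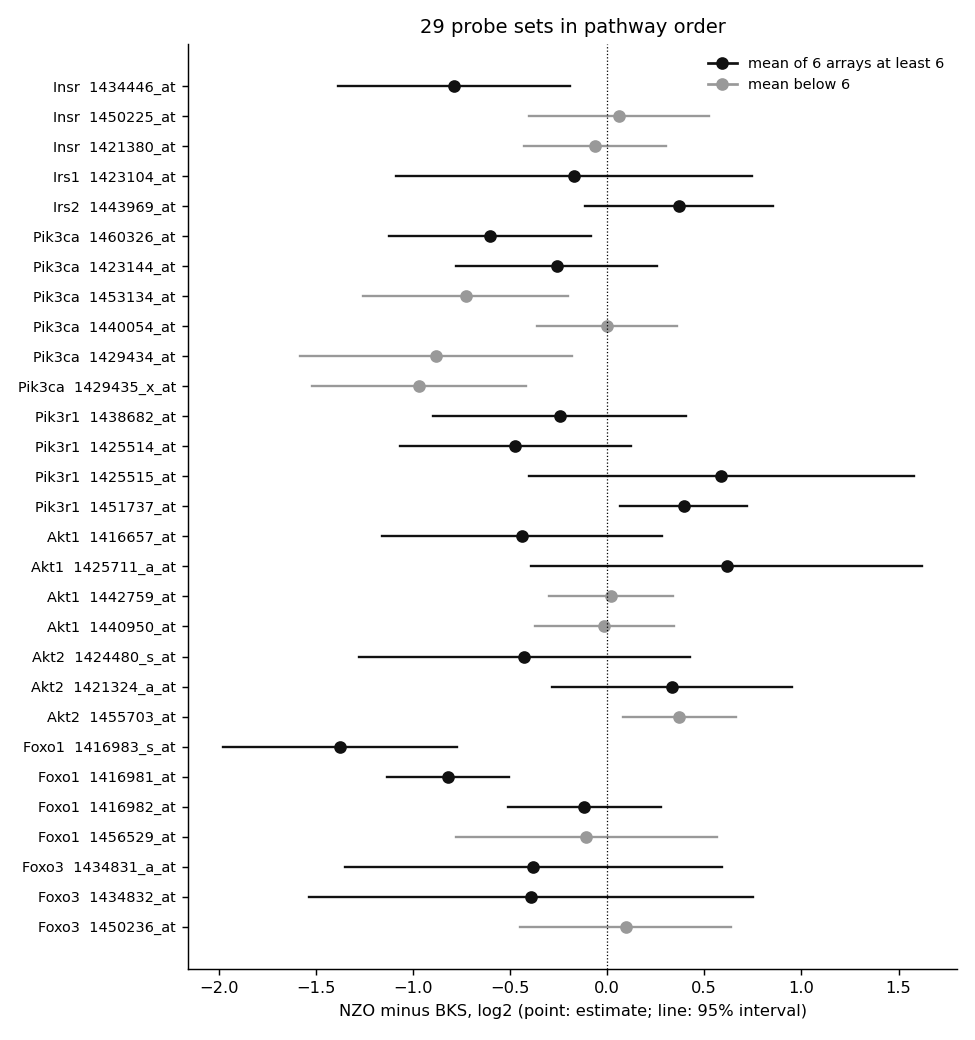
Difference between NZO and BKS liver (horizontal axis, log2, NZO minus BKS) for the 29 probe sets in pathway order, with 95% intervals from limma. The Foxo1 probe sets 1416983_s_at and 1416981_at, at -1.37 and -0.82, have intervals that lie farthest from 0, while the probe sets of Akt1, Akt2 and Pik3r1 fall on both sides of it.

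The insulin receptor Insr, the tyrosine kinase that starts the pathway, had 1 bright probe set. Probe set 1434446_at read 8.72, 9.60 and 9.30 in NZO, against 9.70, 10.15 and 10.13 in BKS. NZO lay below BKS without overlap, but the highest NZO value nearly met the lowest BKS value. The difference was -0.79 (standard error 0.25, 95% interval -1.39 to -0.19), a 1.73-fold lower signal in NZO, with adjusted p = 0.346 without the block and 0.0360 with it. It was -0.98 between the number 1 arrays and -0.70 between the other 4 (adjusted p = 0.0896). With cyclic loess it was -0.52, and repeated quantile normalization likewise made it smaller (-0.54). Both other Insr probe sets averaged below 6 and differed by 0.06 and -0.06.

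Irs1, one of the docking proteins that recruit PI3K, varied more within NZO than between strains. Its single probe set read 9.20, 9.76 and 10.69 in NZO, against 9.88, 10.48 and 9.80 in BKS. NZO held both the lowest and the highest value. The difference was -0.17, with an interval from -1.09 to 0.75. Its sign turned with 6 alternatives, among them the removal of NZO replicate 1 (0.17) or BKS replicate 2 (0.043) and both renormalizations.

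Irs2, the docking protein whose gene FOXO1 and insulin both regulate in liver, was read by 1 probe set. Its mean was 6.14, just above the cut of 6 for bright probe sets. It gave 6.52, 6.08 and 6.36 in NZO, against 6.31, 5.72 and 5.83 in BKS. The strains overlapped, and the difference of 0.37 (interval -0.12 to 0.85, adjusted p = 0.632) did not pass. Irs2 was the only one of the 9 genes whose brightest probe set was above 0 in NZO minus BKS. Over the brightest probe sets the median difference was -0.43 for these 9 genes and -0.03 for all 18193 genes. Without the number 1 arrays Irs1 also lay above 0, and the medians were -0.30 and 0.004.

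**Figure D2:**
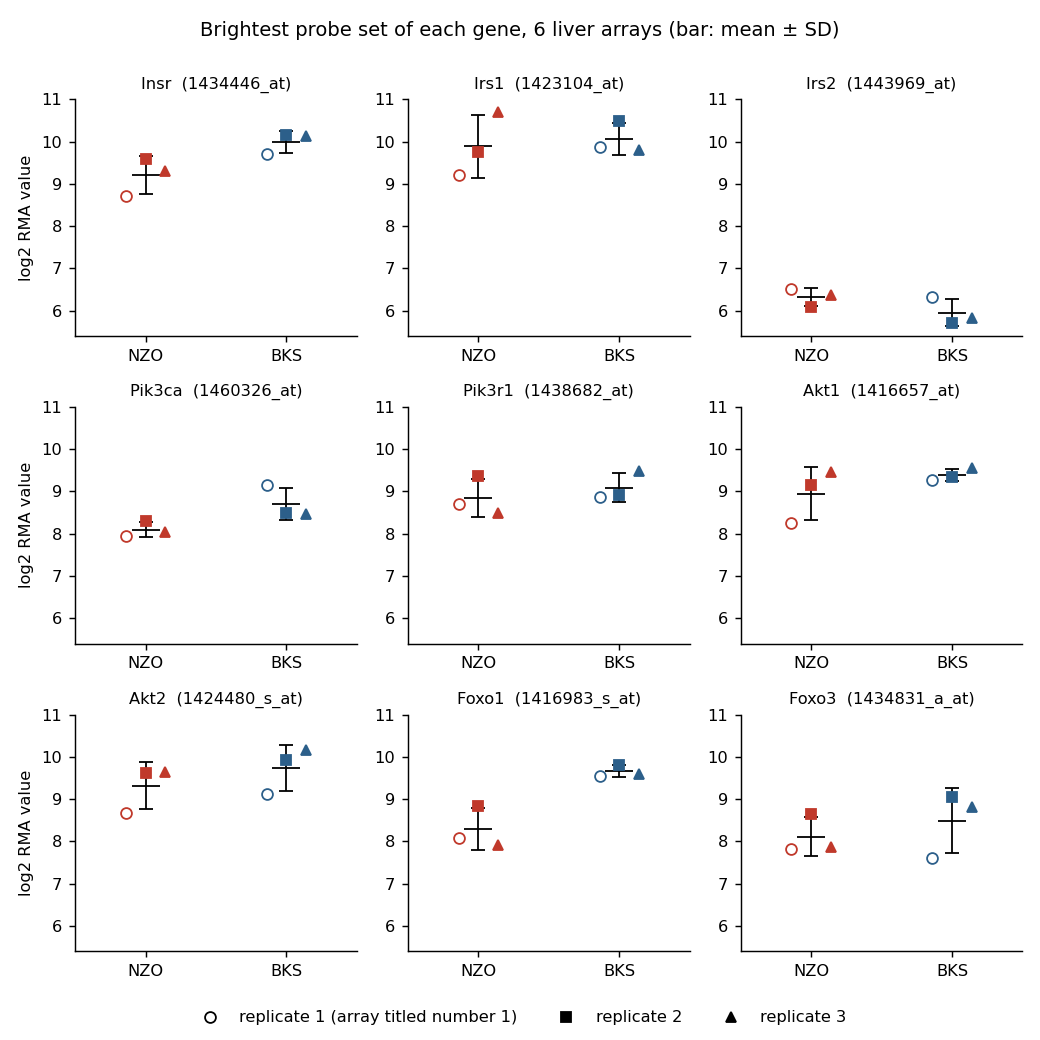
Level of the brightest probe set of each of the 9 genes on each array (vertical axis, log2 RMA value), NZO left of BKS, with mean ± SD of 3 arrays. The strains are separate, with NZO below BKS, for Insr, Pik3ca and Foxo1 and overlap for the other 6 genes. Of the brightest probe sets of all genes, 10.9% had all NZO values below all BKS values and 6.11% had them above. An open circle marks the number 1 array. Levels of different probe sets are not comparable with each other.

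FOXO factors bind the core CAAAACA of insulin response elements and the related forkhead consensus GTAAACA, which share their last 5 letters. Both were searched on both strands of the 250 bases upstream of RefSeq starts. Of the 9 genes 8 matched a gene of the promoter table, with 13 windows. CAAAACA was found in 2 of these windows, those of Irs1 and Irs2, and in 5.56% of all windows. GTAAACA was found in 1, an Akt1 window, and in 3.17% of all windows. The matches are shown beside those of the FOXO1 targets G6pc and Igfbp1, with 24 flanking bases and the motif, or its reverse complement TGTTTTG, in capitals. They lie at chr1:82291520-82291574 and chr1:82291441-82291495 (Irs1, minus strand), chr8:11008936-11008990 (Irs2, minus strand), chr11:101367518-101367572 (G6pc, plus strand) and chr11:7197655-7197709 (Igfbp1, plus strand) of GRCm38.p6. A match describes letters and not a bound site.
Irs1 match 1: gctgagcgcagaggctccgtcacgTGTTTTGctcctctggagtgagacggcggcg
Irs1 match 2: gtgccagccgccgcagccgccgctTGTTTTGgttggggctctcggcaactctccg
Irs2: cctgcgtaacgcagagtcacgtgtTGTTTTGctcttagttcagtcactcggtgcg
G6pc: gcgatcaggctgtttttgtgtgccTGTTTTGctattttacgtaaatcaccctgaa
Igfbp1: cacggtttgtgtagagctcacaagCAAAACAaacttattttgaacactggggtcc

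Pik3ca, the alpha catalytic subunit of PI3K, had 6 probe sets, of which 2 were bright. The brightest, 1460326_at, read 7.94, 8.30 and 8.05 in NZO, against 9.15, 8.49 and 8.47 in BKS. The strains did not overlap, and BKS replicate 1 stood above the other 2 BKS arrays. The difference was -0.60 (interval -1.13 to -0.08, adjusted p = 0.410), and it was smaller without the number 1 arrays (-0.30) than between them (-1.21). The other bright probe set, 1423144_at, was at -0.26 with overlapping strains.

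Among the 4 dim Pik3ca probe sets, 3 were lower in NZO by a similar amount, at -0.73, -0.88 and -0.97, and the remaining one showed next to no difference. The largest of these, 1429435_x_at, read 4.03, 4.52 and 3.88 in NZO, against 4.82, 5.08 and 5.45 in BKS. Its strains did not overlap, with adjusted p = 0.204 without the block, 0.0538 with it and 0.0490 with array weights. The platform table places all 3 on 1 sequence record, and the _x_at suffix marks probes that can cross-hybridize, so they are not independent readings. Probe set 1453134_at, one of the 3, differed by -1.04 between the 2 NZO and 2 BKS arrays outside the number 1 pair and passed there (adjusted p = 0.0259), against -0.11 between the number 1 arrays.

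Pik3r1, the regulatory subunit that binds IRS proteins and holds the catalytic subunit, gave probe sets on both sides of 0. The brightest, 1438682_at, read 8.69, 9.36 and 8.49 in NZO, against 8.86, 8.93 and 9.48 in BKS, with overlap and a difference of -0.24. That difference was -0.006 and -0.004 after the renormalizations and ran from -0.50 to -0.05 without single arrays. Probe set 1451737_at read 7.07, 7.15 and 6.92 in NZO, against 6.62, 6.53 and 6.80 in BKS. Here NZO lay above BKS on every array, by 0.39 (interval 0.06 to 0.72, adjusted p = 0.394). The other Pik3r1 probe sets were at -0.47 (1425514_at) and 0.59 (1425515_at, 0.23 to 0.95 without single arrays), both with overlapping strains. On the same array, 1451737_at minus 1425514_at was -0.28, -0.38 and 0.32 in NZO, against -1.05, -1.19 and -0.70 in BKS. The platform table lists both, and 1425515_at, for 1 sequence record, and no single direction is given for Pik3r1 RNA. This contrast too was picked with the values known. Of 9 such contrasts computed, some of which share a probe set, 5 did not overlap between the strains. No share over all probe sets was computed for such contrasts, so this count is a description only. The 4 that overlapped were 1425515_at minus 1425514_at (differing by 1.06), those of Akt2 (0.80) and Pik3ca (-0.34), and Insr minus Irs1 (-0.62).

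Akt1, the kinase isoform found in most tissues, likewise had readings of opposite sign. Probe set 1416657_at read 8.25, 9.15 and 9.45 in NZO, against 9.27, 9.34 and 9.55 in BKS, where NZO replicate 1 was far below the other 5 arrays. Its difference was -0.44 over 6 arrays and -0.15 without the number 1 arrays. Probe set 1425711_a_at read 6.63, 7.76 and 7.85 in NZO, against 6.57, 6.30 and 7.52 in BKS, a difference of 0.61 with an interval from -0.39 to 1.62. The strains overlapped in both. The second minus the first on the same array, a contrast picked with the values known, was -1.62, -1.39 and -1.61 in NZO, against -2.70, -3.04 and -2.03 in BKS, without overlap. The 2 dim probe sets of Akt1 differed by 0.02 and -0.01.

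Akt2, the isoform known for insulin's metabolic effects in liver, was measured by 3 probe sets. The brightest, 1424480_s_at, read 8.68, 9.62 and 9.64 in NZO, against 9.13, 9.93 and 10.17 in BKS. The number 1 array was the lowest in each strain, and the difference of -0.43 (interval -1.28 to 0.42) did not pass with the block either (adjusted p = 0.135). It was -0.11 without NZO replicate 1, -0.73 without BKS replicate 1, and -0.20 and -0.16 after the renormalizations. Probe set 1455703_at, with a mean just below 6, read 6.23, 6.18 and 6.05 in NZO, against 5.83, 5.70 and 5.80 in BKS. All NZO values lay above all BKS values, by 0.37 (interval 0.08 to 0.66, adjusted p = 0.362). The remaining probe set, 1421324_a_at, was at 0.33 with overlapping strains.

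Foxo1, the transcription factor at the end of the pathway, had 4 probe sets, 3 of them bright. Probe set 1416983_s_at read 8.08, 8.85 and 7.92 in NZO replicates 1 to 3, against 9.55, 9.82 and 9.60 in BKS. All NZO values lay below all BKS values, with a mean of 8.28 ± 0.50 in NZO and 9.66 ± 0.14 in BKS (SD, n = 3 each). The difference of -1.37 (standard error 0.25, 95% interval -1.98 to -0.77) is a 2.59-fold lower signal in NZO. It did not pass over the 6 arrays (adjusted p = 0.108) but did with the number 1 block (adjusted p = 0.0313).

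A second Foxo1 probe set, 1416981_at, had little spread within a strain. Its values were 7.65, 7.71 and 7.81 in NZO, against 8.44, 8.50 and 8.69 in BKS. Again the strains did not overlap, and the gap between them exceeded the range within either strain. The difference was -0.82 (standard error 0.13, 95% interval -1.13 to -0.51), or 1.76-fold lower in NZO, with adjusted p = 0.0711 without the block and 0.0230 with it. Within each side of that split, this probe set differed by -0.78 between the number 1 arrays and by -0.84 between the other 2 NZO and 2 BKS arrays, where it passed (adjusted p = 0.0462). The corresponding differences of 1416983_s_at were -1.47 and -1.32, the second with adjusted p = 0.0733.

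The remaining Foxo1 probe sets did not show this difference. Probe set 1416982_at, which the platform table places on the same sequence record as the 2 above, read 7.69, 8.17 and 8.13 in NZO, against 8.12, 8.20 and 8.03 in BKS. Its strains overlapped, and the difference was -0.12 with an interval from -0.51 to 0.28. The dim 1456529_at was at -0.11, with an interval from -0.78 to 0.56. Subtracting 1416982_at from the others on the same array removes any shift common to that array. For 1416983_s_at the result was 0.38, 0.68 and -0.21 in NZO, against 1.43, 1.62 and 1.57 in BKS. For 1416981_at it was -0.04, -0.46 and -0.32 in NZO, against 0.32, 0.30 and 0.66 in BKS. Neither set of differences overlapped between strains, so the Foxo1 probe sets of 1 record differed unequally between the strains, and no single fold is given for Foxo1 RNA. The pair was chosen for this contrast after the values were seen, and it is a description without a test. Like those of Pik3r1 and Akt1, it does not remove effects that are unequal among probe sets. Shortened RNA and a strain difference in the sequence under a probe would be such effects, and neither was tested.

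**Figure D3:**
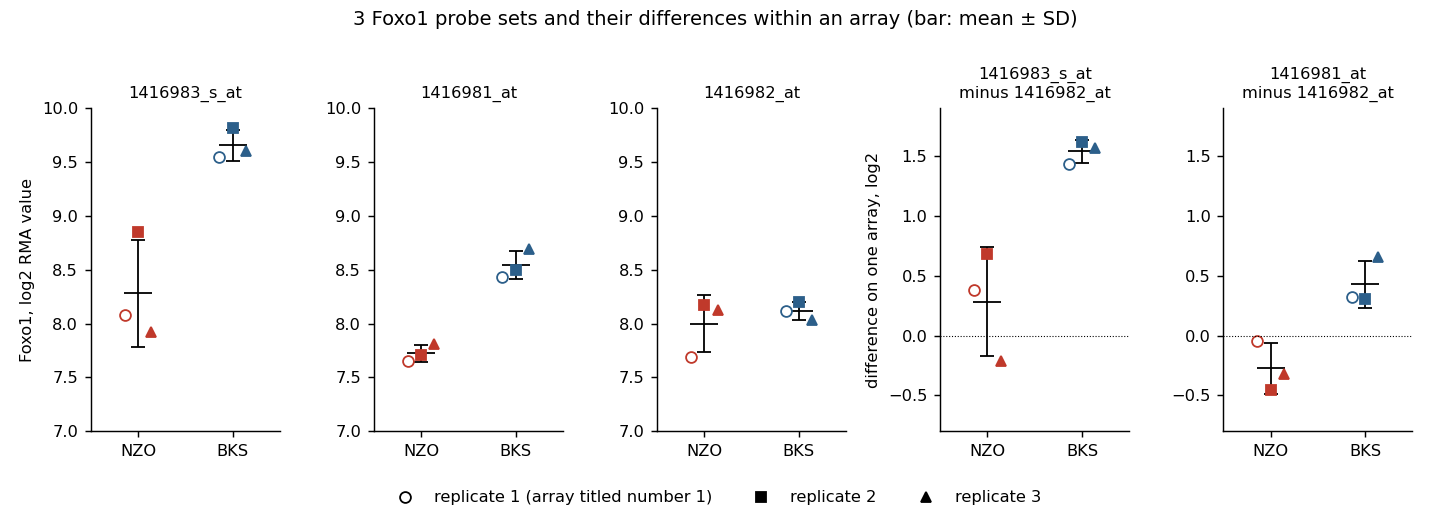
The 3 bright Foxo1 probe sets on each array (left, log2 RMA value) and the difference of 2 of them from 1416982_at on the same array (right, log2), NZO left of BKS, with mean ± SD and an open circle for the number 1 array. NZO lies below BKS on every array for 1416983_s_at and 1416981_at, whereas the strains overlap for 1416982_at (NZO 7.69 to 8.17, BKS 8.03 to 8.20).

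The 250 bases upstream of the Foxo1 start in RefSeq (GRCm38.p6, chr3:52268087-52268336, plus strand) are shown because Foxo1 was the only one of the 9 genes with 2 probe sets called under the block. Capitals mark GC boxes (GGGCGG on either strand), the motif bound by Sp1. This hexamer occurs in 32.7% of 32851 RefSeq windows of this length, so its presence is common.
Foxo1 upstream: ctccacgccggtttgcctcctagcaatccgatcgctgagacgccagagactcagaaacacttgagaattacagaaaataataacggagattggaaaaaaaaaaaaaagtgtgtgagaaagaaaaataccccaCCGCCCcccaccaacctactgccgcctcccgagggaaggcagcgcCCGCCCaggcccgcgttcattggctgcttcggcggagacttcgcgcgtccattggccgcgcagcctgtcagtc

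Foxo3, a second forkhead factor under AKT control, showed no difference beyond its spread. Its brightest probe set, 1434831_a_at, read 7.81, 8.64 and 7.88 in NZO, against 7.61, 9.05 and 8.81 in BKS. The strains overlapped, and the lowest of all 6 values was that of BKS replicate 1. The difference was -0.38 (interval -1.35 to 0.59, adjusted p = 0.838), and a second probe set, 1434832_at, gave -0.39. Both values moved when single BKS arrays were left out: 1434831_a_at was at -0.82 without BKS replicate 1 and -0.10 without BKS replicate 2, and 1434832_at at -0.88 and -0.13. These intervals still allow a difference as large as that of Foxo1 1416981_at. The Foxo1 minus Foxo3 difference of the brightest probe sets on the same array was 0.04 to 0.26 in NZO and 0.77 to 1.94 in BKS. This contrast also was picked with the values known and has no test.

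**Figure D4:**
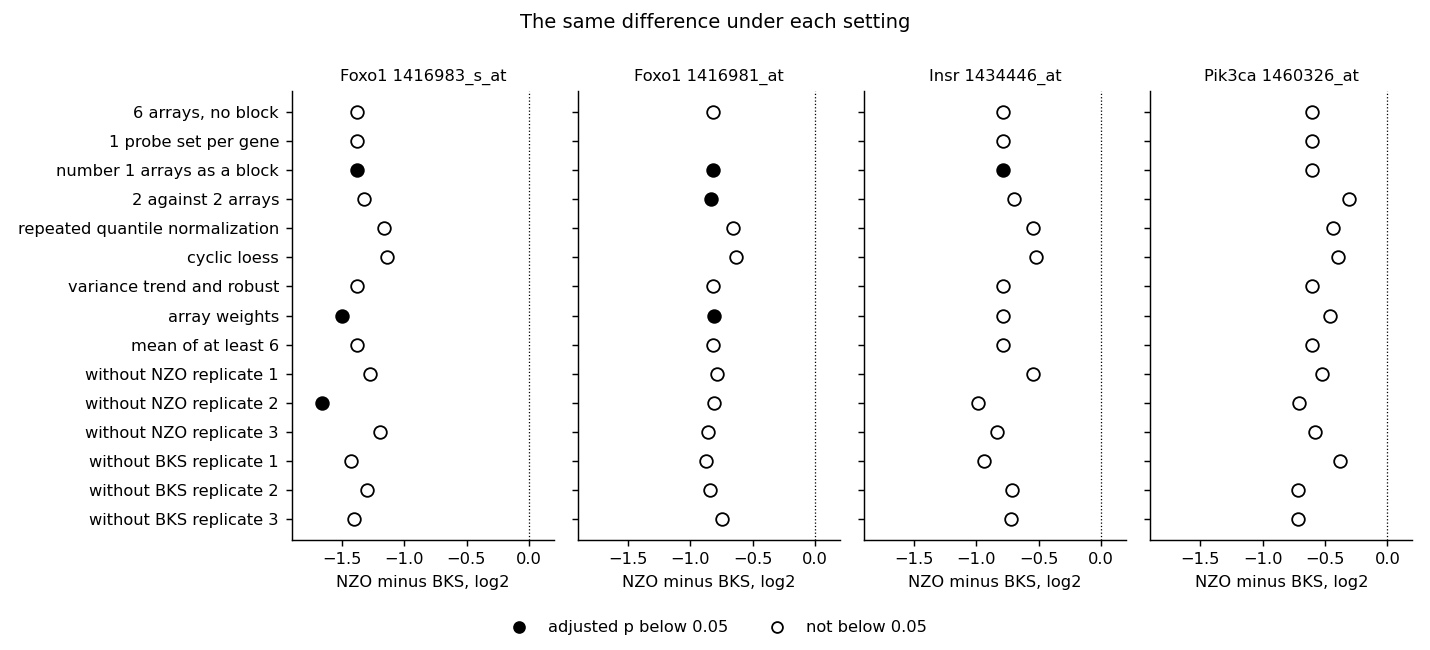
Difference between NZO and BKS (horizontal axis, log2) for 4 probe sets under each setting, with filled points where adjusted p was below 0.05. The 2 Foxo1 probe sets stay below -0.6 under every setting run, and the Insr and Pik3ca probe sets stay below 0; no Pik3ca 1460326_at point is filled.

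By the likeness of their pattern, measured as Pearson's r over the 6 arrays among 9202 genes with a mean of at least 6, the nearest genes to Foxo1 1416983_s_at were Ccnt2, Akr1e1 and Slco1a1 (r = 0.9957, 0.9956 and 0.9934). Akr1e1 differed by -1.71 (adjusted p = 0.0736, and 0.0215 with the block). Nearest to Insr 1434446_at were Nenf, Nbas and Akap9 (r = 0.9987, 0.9964 and 0.9963). Nearest to Pik3ca 1460326_at were Ccdc86, Nsd3 and Angel2 (r = 0.9875, 0.9810 and 0.9809). The 6 arrays share strain and the number 1 split, so these values are a description.

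The wider pathway was read from 6 lists with 107 genes, 100 of them measured, each by its brightest probe set, with Ppargc1a in 2 lists. Of the 100, 1 rose and 1 fell in NZO over the 6 arrays, against 0.566% of all genes read in this way that passed in either direction. When the same 6 arrays were fitted with 1 probe set per gene, fewer tests were adjusted for and 1 was higher and 4 lower, against 0.742% of all genes. The 4 were Prkce, Pik3r4 (adjusted p = 0.0444), Ptprf (0.0444) and Egr1 (0.0321). With the block, 3 were higher and 7 lower, against 4.2% of all genes. The 3 were Inppl1, Sgk1 and Pdk4, and the 7 were Pik3r4, Rps6, Eif4ebp1, Ptprf, Prkce, Foxa2 and Egr1. Between the 2 NZO and 2 BKS arrays outside the number 1 pair 4 were higher and 4 lower, against 3.36%. Over the 100 the median difference was -0.24, against -0.03 for all genes, of which 55.1% lay below 0 over 6 arrays and 49.4% without the number 1 arrays.

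The gene that rose was Pdk4, a kinase that holds back pyruvate oxidation and a known FOXO1 target. It read 8.36, 8.49 and 8.23 in NZO, against 6.47, 5.26 and 5.78 in BKS. Every NZO value was above every BKS value, and the difference was 2.52 (standard error 0.29, adjusted p = 0.0265). Leaving out a single array ended the call in 4 of 6 cases: adjusted p was 0.0919 and 0.131 without the second or the third NZO array, and 0.107 and 0.149 without the second or the third BKS array. Pdk4 was the only one of 24 genes listed here as raised by FOXO1 to pass, and 19 of the 24 lay below 0, with a median of -0.26. Whether FOXO1 raises each listed gene was not tested. NZO replicate 1 was the lowest array in 15 of the 24, and without the number 1 arrays 15 lay below 0 with a median of -0.03. The hepatocyte markers had medians of -0.27 and -0.01 in the same 2 fits. G6pc, which releases free glucose, read 11.7, 12.1 and 12.5 in NZO, against 11.4, 10.8 and 10.8 in BKS. Its difference of 1.11 passed neither plainly (adjusted p = 0.197) nor with the block (0.0700) and passed between the 2 NZO and 2 BKS arrays outside the number 1 pair (1.50, adjusted p = 0.0117).

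Igfbp1, a secreted protein that insulin suppresses through FOXO1, is named for its contrast between the number 1 arrays and the rest, chosen after its values were seen. It read 6.82, 9.45 and 8.98 in NZO, against 10.87, 7.46 and 7.67 in BKS. The number 1 arrays thus ran opposite to the others. The difference was -4.05 between them, 1.65 between the other 2 NZO and 2 BKS arrays (adjusted p = 0.0120) and -0.25 over 6 arrays. Pck1, which commits carbon to new glucose, was likewise looked up for its role and read 10.5, 12.9 and 12.7 in NZO, against 12.2, 12.8 and 12.7 in BKS. NZO replicate 1 was the lowest, and the difference was -0.56 with it and 0.01 without the number 1 arrays. A second bright Pck1 probe set, 1439617_s_at, was at 0.49.

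The gene that fell was Prkce, a diacylglycerol-activated protein kinase C reported to dampen insulin receptor activity in fatty liver. It read 7.05, 6.98 and 6.73 in NZO, against 7.91, 8.20 and 7.94 in BKS. The strains were separate, and the difference was -1.10 (standard error 0.15, adjusted p = 0.0468). That call was lost without any single replicate (adjusted p = 0.0515 to 0.260) and under cyclic loess (adjusted p = 0.0646). A second bright probe set, 1437861_s_at, gave -0.90 (adjusted p = 0.161, and 0.0428 with the block), while the dim 1437860_at and 1449956_at were at -0.10 and 0.25. Of 20 measured brakes on insulin signalling 1 passed, with a median of -0.24 and 15 below 0 (-0.12 and 13 without the number 1 arrays). Ptprf, a receptor phosphatase that can act on the insulin receptor, read 9.26, 9.84 and 10.2 in NZO, against 12.2, 11.5 and 11.4 in BKS. Its difference of -1.93 had adjusted p = 0.0647, and 0.0222 with the block. Probe sets 1420841_at and 1420842_at of Ptprf were at -1.26 and -0.78, below 0 as well.

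Among 22 other genes of PI3K, PDK1, AKT and the mTOR complexes none passed (median -0.24, and -0.12 without the number 1 arrays). Pik3r4, a regulatory subunit of the class III PI3K of autophagy and not of the insulin-activated enzyme, read 6.08, 6.93 and 6.85 in NZO, against 8.03, 8.56 and 8.41 in BKS. The gap was wide (-1.71, adjusted p = 0.0640), and it passed with the block (adjusted p = 0.00218). Its only probe set carries the _s_at suffix. Rps6, a ribosomal protein phosphorylated downstream of mTOR, differed by -0.87, with adjusted p = 0.197 plainly and 0.0395 with the block. None of the 12 receptor-level and docking genes passed without or with the block, and their median was -0.04. The smallest p values there were those of Sos1 (-0.60, adjusted p = 0.361), a Ras exchange factor, and the ubiquitin ligase Cbl (-0.48, adjusted p = 0.374).

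Of 13 other FOXO relatives and nuclear partners none passed, and 12 lay below 0 with a median of -0.39 (9 and -0.28 without the number 1 arrays). Sgk1, a kinase related to AKT that also phosphorylates FOXO factors, was the exception in sign. It read 8.61, 9.22 and 10.8 in NZO, against 6.58, 6.80 and 6.05 in BKS. NZO was above BKS on every array by 3.06 on average, with adjusted p = 0.0878 without the block and 0.0227 with it. Foxa2, a forkhead factor of hepatocytes, differed by -0.94, with adjusted p = 0.123 plainly and 0.0426 with the block.

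In the list of 10 measured genes raised by insulin or lowered by FOXO1, none passed over the 6 arrays and the median was 0.20 (-0.03 without the number 1 arrays). Egr1, an immediate early transcription factor that answers many stimuli besides insulin, read 6.43, 8.00 and 6.68 in NZO, against 10.6, 10.8 and 9.63 in BKS. Its difference of -3.30 had adjusted p = 0.0534, and 0.0156 with the block, and it was lower in NZO on every array. Elovl6, a fatty acid elongase of lipid synthesis, was at 0.95 (adjusted p = 0.349).

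**Figure D5:**
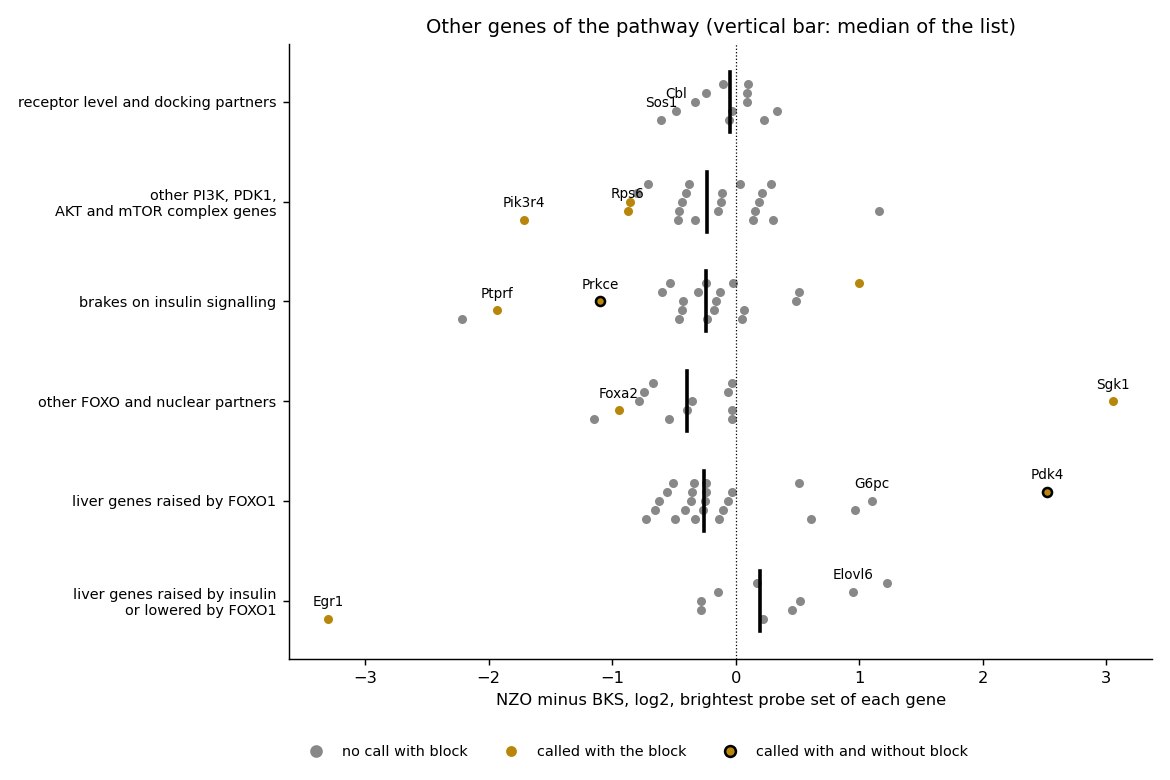
Difference between NZO and BKS (horizontal axis, log2) for each measured gene of the 6 pathway lists, with the median of each list as a vertical bar and named genes labelled. Pdk4 (2.52) and Prkce (-1.10) are outlined as called in that plain fit as well, and coloured points without outline were called with the block and not in the plain fit over all probe sets.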

How the data were processed

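Per the submitters' processing notes, the authors made the deposited log2 values with RMA in Affymetrix Expression Console, which corrects background, quantile-normalizes and summarises each probe set. Versions, and any further arrays in the same RMA run, are not given in the sources used here. Depth does not apply, and the number of arrays limits the precision.

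Columns were matched to samples by name and to strains by the strain label. Without 64 control probe sets there were 45037. Of these, 34945 carry 1 symbol in the platform table, 932 several and 9160 none. Symbols were updated through GRCm38.p6, which gave 18193 genes. Members were matched on the platform symbol.

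Per probe set, NZO was set against BKS in limma 3.58.1 (R 4.3.3) by lmFit and eBayes, two-sided and without covariate, with Benjamini-Hochberg adjustment over all 45037. Intervals are 95% and unadjusted. The test was checked on simulated data with independent noise in each probe set. That check held no shift common to an array, so it does not cover such shifts. Alternatives were 1 probe set per gene, the number 1 arrays as a block, 2 against 2 arrays, renormalization, the variance model, array weights, a minimum mean of 6 and each replicate left out. Replicate numbers follow accession order and pair nothing.

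Named genes are all 9 members, per pathway list up to 4 genes past the test plus, where fewer than 2 passed, the 2 with the smallest p, and the 3 genes most like each member called in any fit. Members, lists, the block and these rules were chosen with earlier results of these data known. Upstream sequences are from RefSeq's GRCm38.p6 table. Figures used matplotlib 3.10.9 in Python 3.11.15.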

Additional observations from a re-analysis of the deposited data

How the results depend on the processing

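Of the 29 probe sets, 0 were higher in NZO under every alternative run, and the number lower was 3 with the number 1 block, 2 among the 2 against 2 arrays and 3 with array weights (Foxo1 1416983_s_at at -1.50, Foxo1 1416981_at at -0.81 and Pik3ca 1429435_x_at at -1.12). With single replicates left out it was 0 to 1, the 1 being Foxo1 1416983_s_at without NZO replicate 2 (-1.66, adjusted p = 0.0358). It was 0 under the other alternatives. Over all probe sets, 86 were higher and 105 lower in NZO. The counts were 417 and 919 with the block, 623 and 569 for 2 against 2 arrays, 320 and 284 with repeated quantile normalization, 320 and 264 with cyclic loess, 180 and 193 with a variance trend and 319 and 510 with array weights. Without single replicates they ran from 14 to 165 and from 12 to 107. Over the alternatives, Foxo1 1416983_s_at lay between -1.66 and -1.13 (adjusted p = 0.0245 to 0.510), Foxo1 1416981_at between -0.87 and -0.63 (0.0230 to 0.344) and Insr 1434446_at between -0.98 and -0.52 (0.0360 to 0.944).

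The signs that turned were all of probe sets that no fit called. For 2 against 2 arrays, repeated quantile normalization, cyclic loess and array weights, Irs1 was at 0.082, 0.073, 0.11 and 0.12, and Akt1 1442759_at at -0.037, -0.046, -0.051 and -0.0064. For the first 3 of these, Foxo1 1416982_at was at 0.036, 0.027 and 0.061 and Pik3ca 1440054_at at -0.022, -0.049 and -0.052. Insr 1450225_at was at -0.12 for 2 against 2 arrays and -0.011 with cyclic loess. Without single replicates the ranges that crossed 0 were -0.58 to 0.17 for Irs1, -0.10 to 0.25 and -0.16 to 0.053 for Insr 1450225_at and 1421380_at, -0.083 to 0.10 for Pik3ca 1440054_at, -0.044 to 0.074 and -0.11 to 0.063 for Akt1 1442759_at and 1440950_at, -0.20 to 0.035 and -0.32 to 0.15 for Foxo1 1416982_at and 1456529_at, and -0.028 to 0.30 for Foxo3 1450236_at. Of all 543 single values, 451 kept their direction and side of the threshold, 46 passed only under the alternative, 13 lost their call and 33 turned. The cause was not tested. RMA values carry no detection call, so the 11 dim probe sets bound what can be read from Insr, Pik3ca, Akt1, Akt2, Foxo1 and Foxo3.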
